A study of Mus musculus with 2 samples.

Results

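The 6 genes described here encode the fat-digesting proteins that the exocrine pancreas secretes: the triglyceride lipase Pnlip, its relatives Pnliprp1 and Pnliprp2, the bile salt-stimulated carboxyl ester lipase Cel, the cofactor colipase Clps and the phospholipase Pla2g1b. They were taken by symbol from the feature table, where all 6 of the 6 were found among 31053 genes. Their raw UMIs (unique molecular identifiers, 1 for each captured transcript molecule) were followed in every barcode. Barcodes with at least 1 UMI of Rbpjl were set against all other cell types. Rbpjl is the acinar cell-restricted, DNA-binding subunit of PTF1, the transcription factor complex that drives digestive enzyme genes.

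Pancreatic acinar cells make these proteins as part of the zymogen mix and release them into the duodenum. Pancreatic lipase needs colipase to hold it on fat droplets coated with bile salts, whereas carboxyl ester lipase is switched on by the bile salts themselves and also splits cholesteryl and vitamin esters. The group IB phospholipase A2 is secreted as a proenzyme and activated by trypsin in the gut.

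Pancreatic cells came from mice of genotype R26[CA]30EYFP on a C57Bl/6J background, taken after pancreatitis. The reporter is an EYFP gene at Rosa26 behind a CA repeat of 30 units, so that EYFP is read only after the repeat changes length. EYFP positive cells and EYFP negative cells made 1 library each, and every animal carried the reporter. The labels give the treatment as none although they call the cells post-pancreatitis, and neither the number and age of the animals nor the interval since pancreatitis was stated. With 1 library a group no difference has a replicate check, no test was made, and all intervals are 95% intervals that cover counting error only.

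The kept EYFP positive barcodes numbered 860 with 2745342 UMIs and a median of 1007.5 UMIs, and the kept EYFP negative barcodes 553 with 4857210 UMIs and a median of 8020 UMIs. Rbpjl was detected in 95 EYFP positive barcodes, with 568 UMIs, and in 0 of 553 EYFP negative barcodes, which allows a share of up to 0.542%. The comparison of Rbpjl-positive barcodes with other cell types therefore lies within the EYFP positive library. The 2 libraries shared 4 barcode sequences, of which 2 were kept in the EYFP positive and 4 in the EYFP negative library, and none of these held Rbpjl. Of the 95 Rbpjl-positive barcodes, 64 fell in clusters that were acinar-like by their markers, 9 in ductal-like and 7 in T-like clusters. The remaining barcodes were spread over fibroblast-like, macrophage-like, B-like, endothelial-like and unnamed clusters. The 743 barcodes of other cell types were the EYFP positive barcodes with 0 Rbpjl UMIs outside the acinar-like clusters.

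All 6 genes were higher in the Rbpjl-positive barcodes than in the other cell types. Together they took 20578 CPM (UMI counts scaled to the depth of the summed set) in the 95 Rbpjl-positive barcodes and 2202 CPM in the 743 barcodes of other cell types, a 9.35-fold difference (9.02 to 9.68). This leaves the 22 acinar-like barcodes without Rbpjl out of both sets. They held 38.6% of the lipase UMIs in kept EYFP positive barcodes, while the 95 Rbpjl-positive barcodes held 38.5%. Against all Rbpjl-negative EYFP positive barcodes, those 22 included, the difference was 3.59-fold (3.49 to 3.69). Each of the 6 was at least 2-fold higher, as were 10.5% of the 8890 genes compared, and 4 of the 6 were at least 10-fold higher, against 0.697% of those genes. The median barcode had 2171 UMIs in the Rbpjl-positive set and 913 UMIs in the other cell types. Markers of other cell types also differed in level. Of 7 erythroid markers 4 had UMIs in Rbpjl-positive barcodes, 3400 CPM in sum with 959 of 1386 UMIs in 1 barcode, against 1063 CPM in other cell types. All 11 fibroblast markers had UMIs in 7 Rbpjl-positive barcodes, 2936 CPM in sum, against 1857 CPM in other cell types. The summed markers of ductal, T, B, macrophage and endothelial cells were lower in the Rbpjl-positive barcodes. For example, ductal markers had 7226 CPM, against 10230 CPM in other cell types. The ductal markers include Tff2, which is also listed here as an acinar secretory gene. The part of all these markers of other cell types in the lipase difference was not tested.

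The triglyceride lipase Pnlip had from 0 to 1599 UMIs in single Rbpjl-positive barcodes, with a median of 5, against 0 to 20 UMIs with a median of 1 in the other cell types. Its level was 8159 CPM (7884 to 8441) in Rbpjl-positive barcodes and 556 CPM (526 to 588) in other cell types, 14.7-fold apart (13.7 to 15.7). The 2 sets overlapped at their low ends, since Pnlip was detected in 86 of the 95 Rbpjl-positive barcodes and in 484 of the 743 others. Pnliprp1, a homologue with little lipase activity of its own, showed the largest ratio of the 6, 24.9-fold (21.4 to 29.2). It had a median of 2 and a highest value of 411 UMIs in Rbpjl-positive barcodes, against a median of 0 and a highest value of 4 UMIs in other cell types. Pnliprp2, which also splits galactolipids and phospholipids, was the scarcest in UMIs. It was found in 34 of 95 Rbpjl-positive barcodes and in 37 of 743 other barcodes, with never more than 1 UMI in a barcode of the other cell types, and its level was 356 CPM in Rbpjl-positive barcodes and 16.3 CPM in other cell types, 21.8-fold apart (15.1 to 32.2). The intervals of Pnliprp1 and Pnliprp2 overlap.

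Cel, the bile salt-stimulated lipase, had a median of 3 and a highest value of 247 UMIs in Rbpjl-positive barcodes, against a median of 0 and a highest value of 8 UMIs in other cell types. Its level was 2056 CPM in Rbpjl-positive barcodes and 114 CPM in other cell types, 18.0-fold apart (15.6 to 20.8). Colipase showed the smallest ratio. Clps had 7138 CPM (6881 to 7402) in Rbpjl-positive barcodes and 1314 CPM (1267 to 1362) in other cell types, 5.43-fold apart (5.16 to 5.72). Its median per barcode was 4 UMIs in Rbpjl-positive barcodes and 2 UMIs in other cell types, with highest values of 1107 UMIs in a Rbpjl-positive barcode and 163 UMIs in another cell type. Pla2g1b stood at 679 CPM in Rbpjl-positive barcodes and 113 CPM in other cell types, 6.02-fold apart (5.06 to 7.16).

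A few barcodes carried much of these sums. The Rbpjl-positive barcode with the most lipase UMIs held 3543 of the 8389, or 42.2%, and 6 Rbpjl UMIs. Without it the summed ratio was 5.73-fold. With each barcode given the same weight, the summed ratio was 3.03-fold, and after thinning every barcode to 500 UMIs it was 3.01-fold, where Pla2g1b stood at 1.47-fold (0.901 to 2.32) and the other 5 genes between 2.07- and 7.82-fold. With equal weights Clps stood at 1.99-fold, and without the 1 barcode with the most UMIs of the gene it stood at 3.57-fold. The plot of levels by cell class shows where the UMIs lay.

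**Figure D1:**
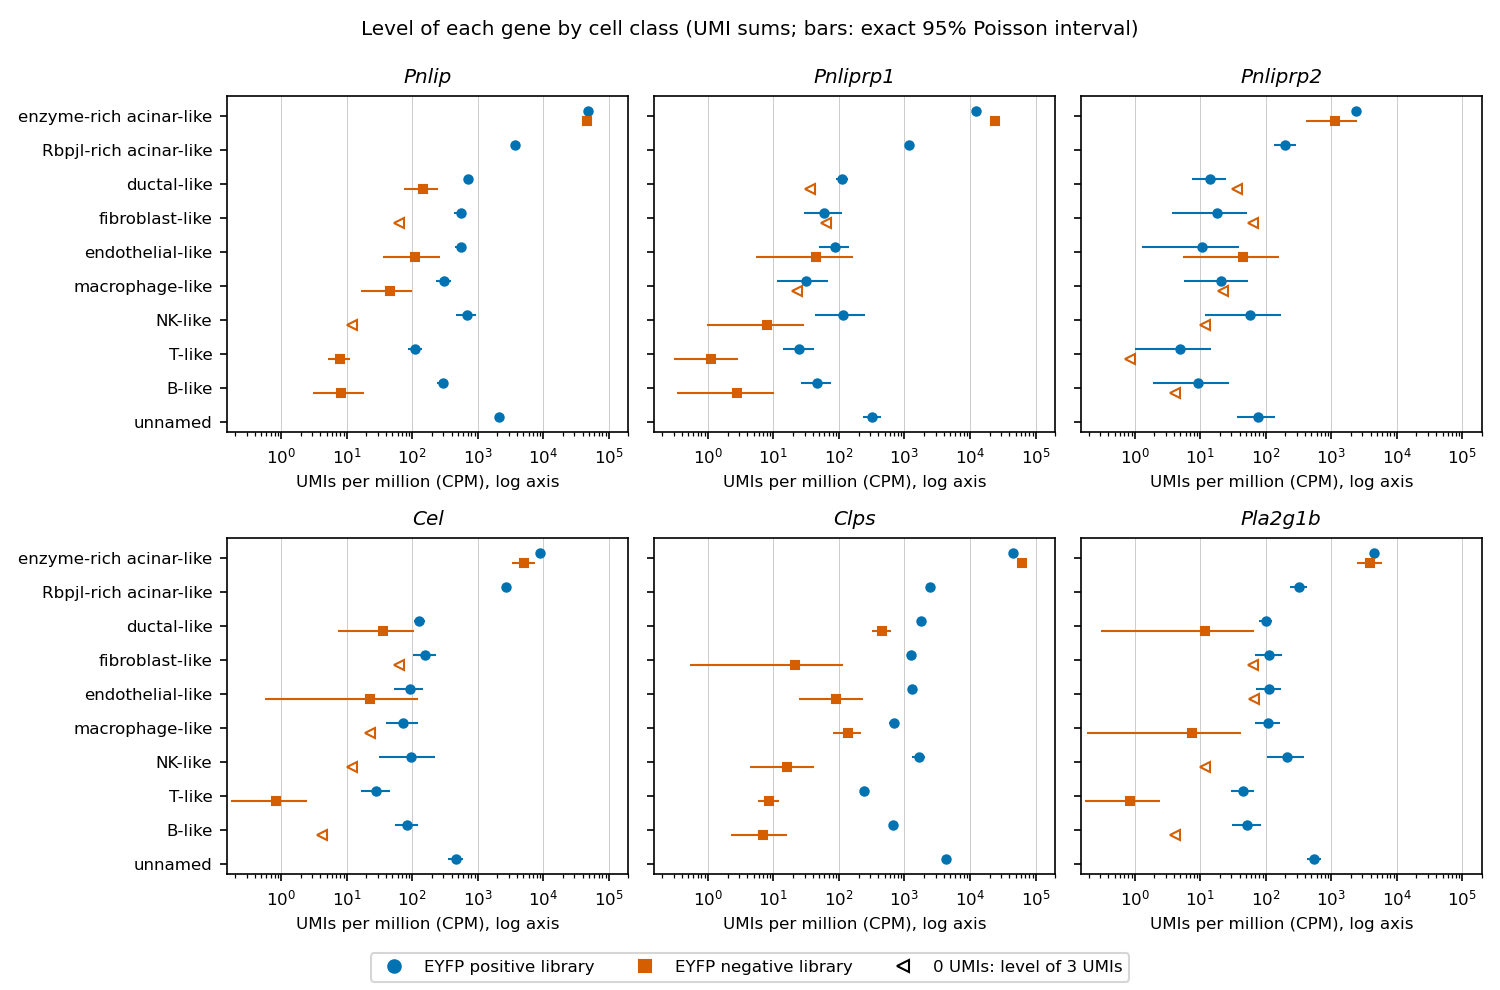
Level of each of the 6 genes by cell class on a log axis, in CPM of the class sum, for the EYFP positive library (circles) and the EYFP negative library (squares), with exact 95% Poisson intervals. Open triangles mark the level of 3 UMIs where none was found. In all 6 panels the enzyme-rich acinar-like cluster has the highest EYFP positive level and the Rbpjl-rich acinar-like cluster lies below it.

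The acinar-like barcodes formed 2 clusters that differed in the lipase genes. The 6 genes were left out of the genes used for clustering, but other enzyme genes that vary with them were not. An example is Cela2a, with r = 0.997 to Clps over sums of library and class. The difference in lipase genes is therefore not independent of the clustering. One cluster, of 31 EYFP positive barcodes, was led by enzyme genes such as Ctrb1, Try5 and Cpb1. The other, of 55 barcodes, was led by Rbpjl, the stress-response gene Nupr1 and Sel1l, a component of ER-associated degradation. The cluster with the higher share of lipase UMIs is called enzyme-rich here, and the one with more Rbpjl-positive barcodes Rbpjl-rich. The direction of their summed lipase ratio was thus set by how they were named. The Rbpjl-rich cluster was acinar-like by 13 markers at 2-fold or more, none of them among its 10 leading genes. This comparison was chosen after the data were seen, and since Rbpjl leads one cluster and enzyme genes the other, their own difference is a description: Rbpjl had 232 CPM in the enzyme-rich and 3574 CPM in the Rbpjl-rich cluster, 15.4 times lower (10.6 to 23.2).

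The 6 genes took 121005 CPM in the enzyme-rich cluster and 10502 CPM in the Rbpjl-rich cluster, 11.5-fold apart (10.9 to 12.2). In single barcodes they made up 3.91 to 15.99% of the UMIs in the enzyme-rich cluster, with a median of 10.6%, and 0.145 to 2.25% in the Rbpjl-rich cluster, with a median of 1.08%. These ranges did not overlap. The enzyme-rich cluster was 3.60% of the kept EYFP positive barcodes and held 69.3% (68.7 to 69.9) of the lipase UMIs in these kept barcodes. The Rbpjl-rich cluster was 6.40% of the barcodes and held 6.78% (6.45 to 7.12). Of the enzyme-rich barcodes 20 had no Rbpjl UMI, and these had 123121 CPM (120500 to 125785) of lipases, against 118468 CPM (115653 to 121333) in the 11 with Rbpjl. Of the 29 EYFP positive barcodes with at least 5% lipase UMIs, 18 were Rbpjl-negative, and all 29 lay in the enzyme-rich cluster. Enzyme-rich barcodes had a median of 309 genes and 2583 UMIs, and Rbpjl-rich barcodes a median of 802 genes and 2171 UMIs. Of 14 ductal markers 12 had UMIs in the enzyme-rich cluster, 6806 CPM in sum with 1 to 178 UMIs per barcode. In the Rbpjl-rich cluster 10 had UMIs, 1101 CPM with 0 to 15 per barcode. The ductal markers include the acinar secretory gene Tff2, which varied with Pnliprp1 over sums of library and class (r = 0.976). Its part in the ductal sum was not separated. Of 7 erythroid markers 5 had UMIs in the enzyme-rich cluster, where 1 barcode held 959 of 1399 UMIs, and 4 in the Rbpjl-rich cluster, with 19 UMIs. The part of detected genes and of these markers in the difference was not tested. The 22 acinar-like barcodes without Rbpjl in both clusters had each of the 6 genes at least 10-fold above the other cell types, against 0.488% of 8197 genes.

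The fold between the clusters was not the same for the 6 genes. Clps stood at 44664 CPM in the enzyme-rich and 2423 CPM in the Rbpjl-rich cluster, 18.4-fold apart (16.5 to 20.6). Pla2g1b was 14.3-fold (10.5 to 19.8), Pnlip 13.1-fold (11.96 to 14.3), Pnliprp2 11.95-fold (8.10 to 18.3) and Pnliprp1 10.3-fold (8.78 to 12.2) higher in the enzyme-rich cluster. Cel stood apart at 3.34-fold (2.97 to 3.76), with 9000.1 CPM in the enzyme-rich and 2693 CPM in the Rbpjl-rich cluster. All 6 were at least 2-fold and 5 of the 6 at least 10-fold higher, as were 19.3% and 4.06% of the 641 genes compared. The total in the enzyme-rich cluster is largely made of enzyme transcripts. With a total that omitted the acinar secretory genes and those of mitochondria and ribosomes, the summed ratio was 39.1-fold, Cel 11.3-fold and Clps 62.6-fold. Such a change of total multiplies all 6 ratios by the same factor, so their order could not change.

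In summed UMIs all 6 genes were also higher in the Rbpjl-rich cluster than in the other cell types pooled, Cel the most and Clps the least. For 4 of them this held when every barcode was thinned to 500 UMIs. Cel was 23.6-fold higher (20.1 to 27.7), Pnliprp1 13.5-fold (10.9 to 16.7), Pnliprp2 12.2-fold (7.18 to 20.5) and Pnlip 6.61-fold (5.96 to 7.33). Pla2g1b was 2.83-fold (2.01 to 3.90) and Clps 1.84-fold (1.64 to 2.06) higher. The pooled classes differed in level. Unnamed barcodes, with 4.75% of all kept EYFP positive UMIs, held 6.13% of the Clps and 8.11% of the Pla2g1b UMIs. The Rbpjl-rich cluster, with 5.13% of all UMIs, held 3.78% and 5.07%, so both genes were higher in unnamed barcodes. Lower levels than in the Rbpjl-rich cluster were seen in T-like, B-like and ductal-like barcodes, with 1.63%, 2.36% and 16.8% of the Clps UMIs and 21.9%, 11.7% and 30.4% of all UMIs. Of the 6 genes 5 were at least 2-fold and 3 at least 10-fold higher, against 18.9% and 1.54% of 8487 genes. With every barcode thinned to 500 UMIs the Rbpjl-rich cluster had 3127 CPM of Clps (2501 to 3862) and other cell types 3526 CPM (3338 to 3723), 0.887-fold (0.704 to 1.10). Pla2g1b, with 8 UMIs left in the Rbpjl-rich cluster, was then 0.886-fold (0.374 to 1.80). No difference in either gene was thus detectable after thinning, which also gives every barcode equal weight. Cel was 5.87-fold (4.26 to 8.01), Pnliprp2 5.56-fold (1.95 to 14.1), Pnliprp1 4.89-fold (3.20 to 7.30) and Pnlip 2.02-fold (1.62 to 2.49) higher in the thinned Rbpjl-rich cluster. Thinned to 1000 UMIs, which left out 9 Rbpjl-rich and 402 other barcodes, Clps had 2587 CPM in the Rbpjl-rich cluster and 1496 CPM in other cell types. With the enzyme-rich cluster left out of the Rbpjl-positive set, the 84 remaining barcodes had 2.15 times the lipase level of other cell types. Cel then stood at 9.78-fold (8.33 to 11.5) and Clps at 0.972-fold (0.878 to 1.07), an interval that holds equality.

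**Figure D2:**
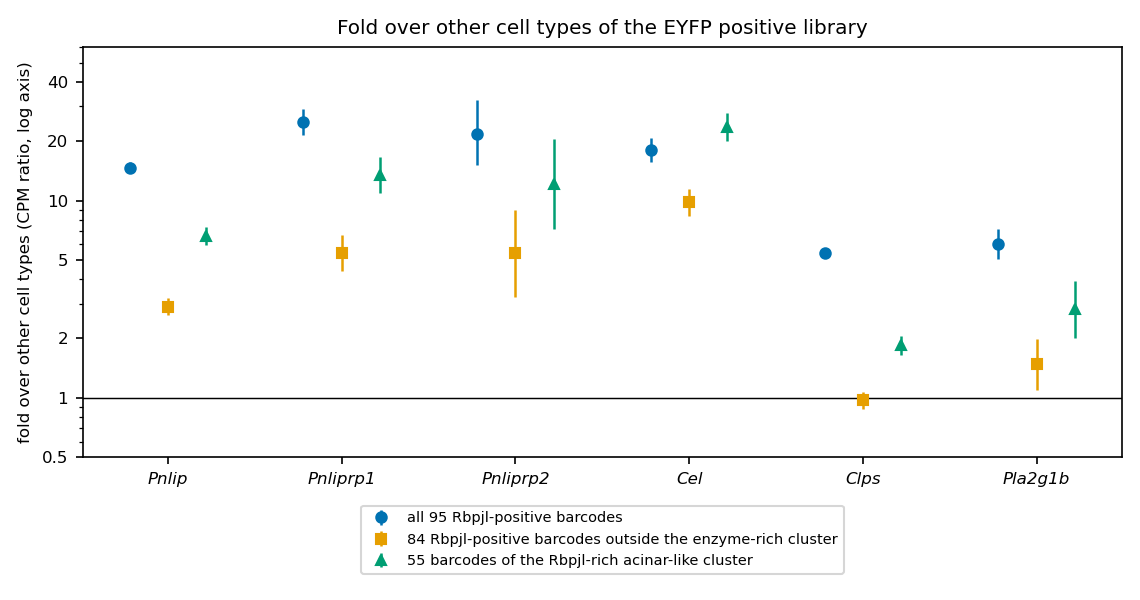
Fold over other cell types of the EYFP positive library for each gene on a log axis, with exact conditional 95% intervals, for all Rbpjl-positive barcodes (circles), for those outside the enzyme-rich cluster (squares) and for the Rbpjl-rich cluster (triangles). Without the enzyme-rich cluster Cel has the highest fold of the 6, 9.78, and Clps the lowest, 0.972.

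Rbpjl-positive barcodes were also binned by their Rbpjl UMIs, in bins chosen after the data were seen. The differences between bins depended on the weight given to each barcode and on single barcodes. Cel had 721 CPM in the 40 barcodes with 1 Rbpjl UMI, 4234 CPM in the 38 with 2 to 9 and 3125 CPM in the 17 with 10 or more. Clps had 3683 CPM with 1 Rbpjl UMI, 18907 CPM with 2 to 9 and 1582 CPM with 10 or more. The middle bin holds the barcode of 3543 lipase UMIs, which gave 63.5% of its lipase UMIs. In the bin with 1 Rbpjl UMI 1 barcode gave 55.2% of the Cel and 1 gave 55.6% of the Clps UMIs. That bin also holds 1 ductal-like barcode with 90166 of its 228859 UMIs, which had 0 Cel and 4 Clps UMIs. The ratios between bins without that deep barcode were not computed. Of the 6 genes, 1 was at least 2-fold higher and 1 at least 2-fold lower with 10 or more Rbpjl UMIs than with 1, against 23.1% and 50.4% of 1539 genes, so these counts do not set the members apart.

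Between the outer bins Cel was 4.34-fold higher (3.54 to 5.32) with 10 or more Rbpjl UMIs than with 1, and 9.53-fold higher without the barcode with the most Cel UMIs. The median depth was 1016 UMIs per barcode with 1 Rbpjl UMI, 2033.5 with 2 to 9 and 4157 with 10 or more. With every barcode thinned to 500 UMIs, and so given equal weight, Cel was 1.34-fold (0.736 to 2.39), an interval that holds equality. Clps was 0.430-fold (0.352 to 0.521) at full depth and 0.164-fold (0.0832 to 0.294) when thinned. Without the 1 barcode with the most Clps UMIs it was 0.944-fold (0.762 to 1.16), so the difference in Clps at full depth rests on that barcode. At full depth the other 4 genes lay between 0.893- and 1.18-fold, and the sum of the 6 was 1.08-fold (0.993 to 1.18). The sum was 0.440-fold (0.338 to 0.565) when thinned and 1.86-fold (1.70 to 2.05) without the barcode with the most lipase UMIs.

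The balance of Cel and Clps was also taken within sets, as a ratio of their UMIs. Per Clps UMI there were 0.202 Cel UMIs (0.189 to 0.215) in the enzyme-rich cluster and 1.11 (0.958 to 1.29) in the Rbpjl-rich cluster. In Rbpjl-positive barcodes the ratio was 0.196 (0.165 to 0.232) with 1 Rbpjl UMI, 0.224 (0.201 to 0.249) with 2 to 9 and 1.98 (1.58 to 2.48) with 10 or more, and in other cell types 0.0870 (0.0763 to 0.0988). More Cel than Clps UMIs were seen in 2 of 31 enzyme-rich barcodes, in 22 of 55 Rbpjl-rich barcodes and in 12 of 743 barcodes of other cell types. In the Rbpjl-rich cluster 27 barcodes had fewer Cel than Clps UMIs and 6 had as many of each. Thinned to 500 UMIs the ratio was 0.191 (0.155 to 0.234) in the enzyme-rich and 0.698 (0.493 to 0.981) in the Rbpjl-rich cluster, 0.203 (0.137 to 0.294) with 1 Rbpjl UMI, 0.290 (0.205 to 0.404) with 2 to 9 and 1.67 (0.776 to 3.74) with 10 or more. With equal depth and weight per barcode there was thus less Cel than Clps in the Rbpjl-rich cluster, and with 10 or more Rbpjl UMIs the interval holds equality.

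**Figure D3:**
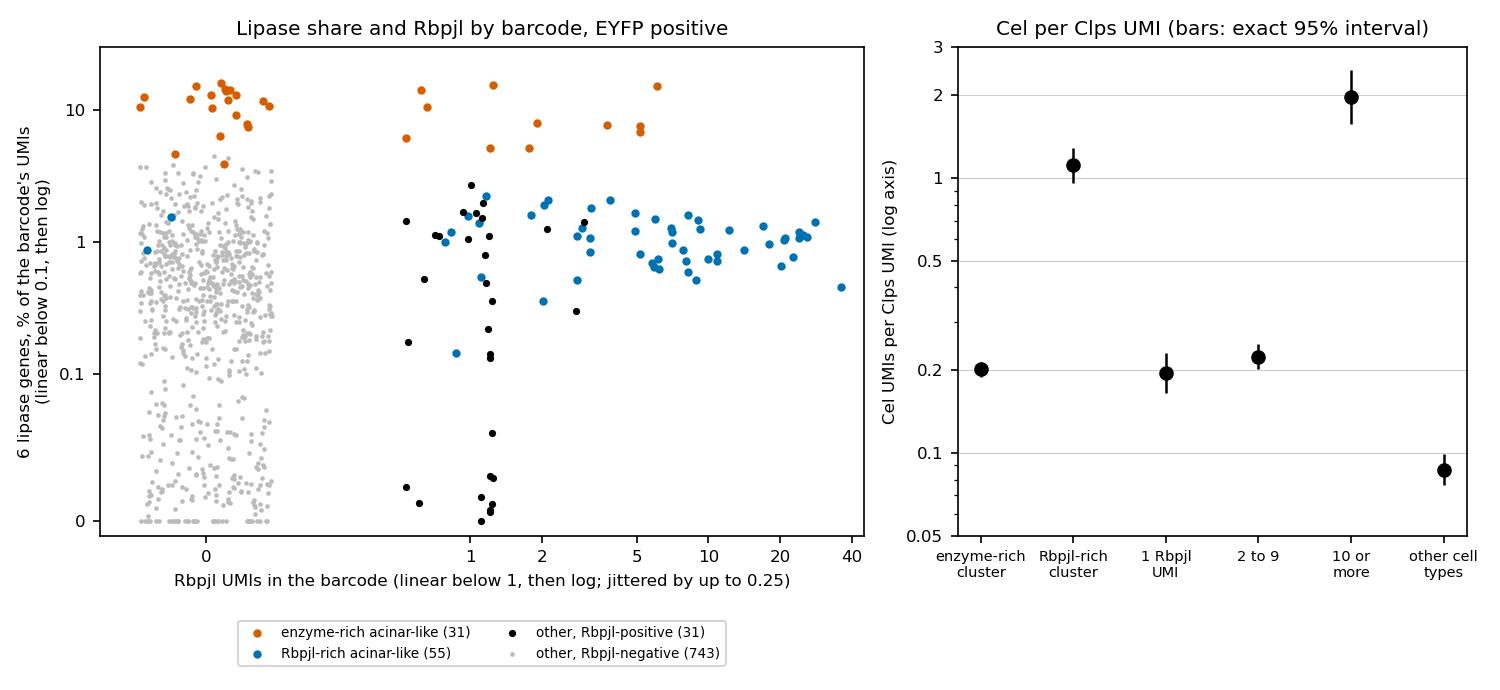
Left, each EYFP positive barcode by its Rbpjl UMIs (linear below 1, then log) and the share of its UMIs from the 6 genes (linear below 0.1%, then log), coloured by cluster; right, Cel UMIs per Clps UMI on a log axis with exact 95% intervals. Barcodes above 5% lie in the enzyme-rich cluster with 0 to 6 Rbpjl UMIs, and the ratio at full depth is highest, 1.98, with 10 or more Rbpjl UMIs.

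The lipase transcripts were also found in barcodes of cells that are not known to make them. In the EYFP positive library 84.9% (76.6 to 91.1) of 106 T-like and 89.4% (82.2 to 94.4) of 113 B-like barcodes had at least 1 UMI of the 6 genes, at a median depth of 6349 UMIs in T-like and 1355 UMIs in B-like barcodes, against 2171 UMIs in Rbpjl-positive barcodes. In the EYFP negative library these shares were 10.2% (7.41 to 13.7) of 391 T-like and 9.43% (4.62 to 16.7) of 106 B-like barcodes, at a median depth of 8625 UMIs in T-like and 5602.5 UMIs in B-like barcodes. A share of barcodes with a UMI at or below the T-like and B-like shares is read as background. Pnlip was detected in 90.5% of Rbpjl-positive barcodes, 43.4% of T-like and 49.6% of B-like EYFP positive barcodes, and Clps in 91.6% of Rbpjl-positive, 62.3% of T-like and 81.4% of B-like barcodes. Cel was detected in 76.8% of Rbpjl-positive, 13.2% of T-like and 19.5% of B-like barcodes. Thinned to 500 UMIs, which left no barcode out, the shares for Cel were 54.7% of Rbpjl-positive, 5.66% of T-like and 7.08% of B-like barcodes. The shares for Clps were then 68.4% of Rbpjl-positive, 18.9% of T-like and 52.2% of B-like barcodes. For Clps other EYFP positive classes reached 80.7% (unnamed), 76.5% (NK-like), 74.3% (ductal-like) and 68.75% (fibroblast-like). Endothelial-like barcodes had 46.6% and macrophage-like ones 40.7%. Detection of Clps thus did not set Rbpjl-positive barcodes apart from all other classes. The median count of the 6 genes together lay between 2 and 6 UMIs per barcode in each of the EYFP positive classes other than the acinar-like one, whose median was 43. Their levels were 458 CPM in T-like barcodes, 2887 CPM in ductal-like barcodes with a median of 801.5 UMIs and 7799 CPM in unnamed barcodes with a median of 721 UMIs.

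The makeup of the lipase UMIs was similar across most of the EYFP positive classes outside the acinar-like one. Clps gave 53.5% of them in T-like, 57.7% in B-like, 58.7% in fibroblast-like, 60.6% in endothelial-like and 55.98% in macrophage-like barcodes, and Pnlip between 24.0 and 25.5% in these 5 classes. In the enzyme-rich cluster Clps gave 36.9% (36.1 to 37.7) and Pnlip 39.8% (39.0 to 40.6), and in the Rbpjl-rich cluster Clps gave 23.1% (20.9 to 25.3) and Pnlip 35.0% (32.6 to 37.5). Cel made up 25.6% (23.4 to 27.9) of the lipase UMIs in the Rbpjl-rich cluster, 7.44% (7.02 to 7.87) in the enzyme-rich cluster and 5.19% (4.59 to 5.84) in other cell types. The 31 Rbpjl-positive barcodes outside the acinar-like clusters had 1035 CPM of lipases (903 to 1181), which is below the 2202 CPM of other cell types. Of these lipase UMIs 56.6% (49.7 to 63.2) were Clps. This set includes 1 ductal-like barcode of 90166 UMIs with 2 Pnlip, 1 Pnliprp1 and 4 Clps UMIs. The part of that barcode in the lower level was not tested.

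**Figure D4:**
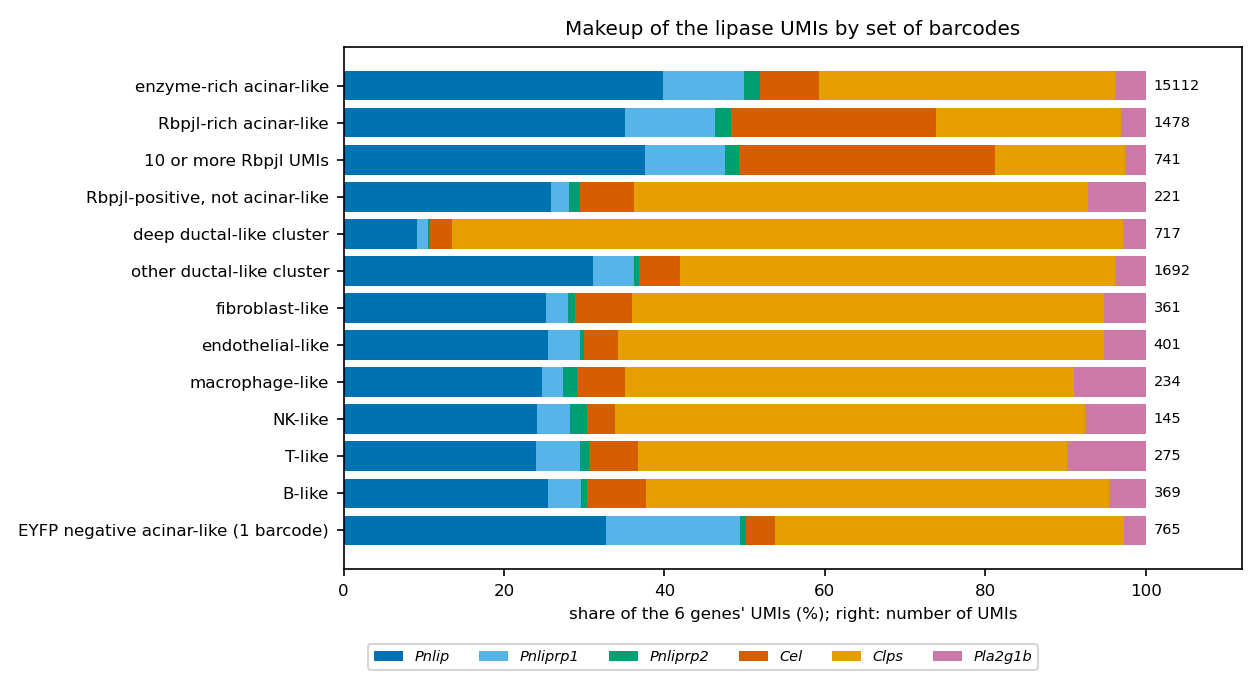
Share of each gene among the lipase UMIs, by set of barcodes, with the number of UMIs at the right. Cel is the widest in the bar of barcodes with 10 or more Rbpjl UMIs and in the Rbpjl-rich cluster, and Clps in the deep ductal-like cluster.

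One ductal-like cluster had a higher share of colipase than the other classes. In its 28 EYFP positive barcodes, which had a median of 16888 UMIs and were led by Spp1, Clu and Dcdc2a, Clps gave 83.7% of 717 lipase UMIs. Clps ranged from 2 to 163 UMIs per barcode with a median of 6.5, and 3 barcodes with 163, 109 and 94 UMIs held 61.0% of them. Those 3 barcodes had 3, 11 and 10 Pnlip UMIs and 62, 54 and 48 UMIs of the chymotrypsinogen gene Ctrb1. Their Clps came to 2.23 per Ctrb1 UMI, and without them the cluster had 1.40, against 0.660 in the other cell types outside this cluster. In the remaining 25 barcodes Clps was 75.7% of the lipase UMIs. The 194 EYFP positive barcodes of the other ductal-like cluster, with a median of 764 UMIs, had 54.3% Clps.

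Between the libraries, the 6 genes took 7941 CPM (7836 to 8047) in EYFP positive and 195 CPM (183 to 208) in EYFP negative barcodes, a 40.7-fold difference (38.2 to 43.5). Each of the 6 was at least 2-fold and at least 10-fold higher in the EYFP positive library, against 21.5% and 5.31% of 11040 genes. The ratios ran from 24.3-fold (20.5 to 29.1) for Pnliprp1 to 92.5-fold (65.9 to 134) for Cel, and the lowest place of Pnliprp1 rests on 1 barcode. The libraries differed in which cells they held. Among the kept EYFP negative barcodes 1 acinar-like barcode of 5307 UMIs held 765 of the 947 lipase UMIs. It had 250 Pnlip, 128 Pnliprp1, 6 Pnliprp2, 27 Cel, 333 Clps and 21 Pla2g1b UMIs and no Rbpjl UMI. Its lipase level of 144149 CPM (134114 to 154736) was above the summed level of the enzyme-rich cluster of the EYFP positive library. At 14.4% of its UMIs it lay within the range of single enzyme-rich barcodes, 3.91 to 15.99%. Its Cel per Clps UMI of 0.0811 (0.0526 to 0.120) was below that of the cluster sum. Single enzyme-rich barcodes lay on both sides, for example with 29 Cel and 469 Clps UMIs (lower) and with 247 and 1107 (higher). Without that EYFP negative barcode the 6 genes took 37.5 CPM in the EYFP negative library, and the difference was 212-fold (183 to 246). The ratios then ran from 158-fold (130 to 194) for Clps to 449-fold (217 to 1118) for Cel, with 335-fold (182 to 701) for Pnliprp1. They rest on few EYFP negative UMIs, 7 of Cel and 10 of Pnliprp1. Without acinar-like barcodes in either library the ratio was 56.02-fold (48.3 to 65.3). No lipase UMI was found in 490 of the 553 EYFP negative barcodes.

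Other acinar secretory genes showed the same direction. Of the 38 found, 29 had at least 10 UMIs, and all 29 were at least 2-fold higher in Rbpjl-positive barcodes than in other cell types, with a median log2 ratio of 3.20, against 4.02 for the 6 lipase genes and -0.04 for the 11846 genes measured, of which 13.6% were at least 2-fold higher. Many of these genes also served to name the acinar-like class, which the other cell types leave out. The elastase Cela1 was 13.7-fold (12.9 to 14.5), the chymotrypsinogen Ctrb1 9.21-fold (8.85 to 9.59), the trypsinogen Prss2 6.47-fold (6.09 to 6.86) and the elastase Cela2a 5.85-fold (5.49 to 6.24) higher. Between the 2 acinar-like clusters, Ctrb1 was 25-fold (23.1 to 27.1), Prss2 21.3-fold (19.0 to 24.0), Cela2a 16.2-fold (14.6 to 18.0) and Cela1 5.46-fold (5.12 to 5.82) higher in the enzyme-rich one.

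Of 8 measured acinar transcription factors, 5 were at least 2-fold higher in Rbpjl-positive barcodes and none was at least 2-fold lower. These counts include Rbpjl, which defines the sets, so its own call was fixed in advance. Of all genes measured 13.6% were higher and 13.6% lower by that much. Xbp1, which drives the secretory apparatus, was 2.49-fold (1.94 to 3.17) higher, whereas Nr5a2, a nuclear receptor of acinar genes, stood at 1.43-fold (0.941 to 2.13) and Gata6 at 0.979-fold (0.646 to 1.44), both intervals that hold equality. Between the acinar-like clusters the median log2 ratio of all genes measured was -2.75. All 6 transcription factors measured there were at least 2-fold lower in the enzyme-rich cluster, where 76.5% of the 2418 genes measured were. They again include Rbpjl, which leads the Rbpjl-rich cluster. Of 15 genes of ER machinery, 4 were at least 2-fold higher in Rbpjl-positive barcodes and none was at least 2-fold lower. The chaperone gene Hspa5 was 2.48-fold (2.19 to 2.82) higher, Hsp90b1 stood at 0.984-fold (0.837 to 1.15), Ssr4 at 0.936-fold (0.730 to 1.19) and Sec61b at 0.563-fold (0.427 to 0.730). In the enzyme-rich cluster Hspa5 was 7.59 times lower (5.22 to 11.4) than in the Rbpjl-rich one, whereas Sec61b was 3.52-fold (1.54 to 9.03) and Ssr4 4.10-fold (2.06 to 8.86) higher. Of the 11 genes of ER machinery measured between the clusters 3 were at least 2-fold higher and 6 at least 2-fold lower in the enzyme-rich one, against 8.93% and 76.5% of all genes measured. With acinar secretory, mitochondrial and ribosomal transcripts omitted from the totals, Hspa5 was 0.447-fold (0.298 to 0.650).

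Of 14 measured genes of other lipases and their cofactors, 1 was at least 2-fold higher and 1 at least 2-fold lower in Rbpjl-positive barcodes than in other cell types, against the same 13.6% of all genes measured in each direction, with a median log2 ratio of -0.22. These counts use a pseudocount of 0.5 UMIs, with which Ces1d falls just short of 2-fold. The carboxylesterase Ces1d was 2.00 times lower (1.53 to 2.66), and Gpihbp1, which anchors lipoprotein lipase on capillaries, 3.74 times lower (1.93 to 8.30). Lipoprotein lipase (Lpl) stood at 0.837-fold (0.624 to 1.11) and the lysosomal lipase Lipa at 0.673-fold (0.394 to 1.09). Of 8 other phospholipase A2 genes, 3 were at least 2-fold higher and 1 at least 2-fold lower, against those same shares. Pla2g16 stood at 0.844-fold (0.525 to 1.30) and Pla2g12a at 1.09-fold (0.516 to 2.11). In Rbpjl-positive barcodes Pla2g7 had 3 UMIs, 0.491-fold (0.0964 to 1.56), and Pla2g6 had 4, 1.85-fold (0.436 to 6.11). With the pseudocount used for the counts, Pla2g6 is among those at least 2-fold higher and Pla2g7 is not at least 2-fold lower.

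Among the 95 Rbpjl-positive barcodes all 6 lipase genes were detected together in 21, 5 of them in 27 and none in 1. Spearman correlations of CPM between pairs of the 6 genes over these 95 barcodes lay between 0.218 (Pnliprp2 with Clps) and 0.580 (Pnlip with Clps), values that share the barcodes' depth and the split between clusters. Over the 53 Rbpjl-positive barcodes of the Rbpjl-rich cluster the highest was 0.399, for Clps with Pla2g1b. The next was 0.205 (Cel with Pla2g1b) and the lowest -0.116 (Pnliprp2 with Cel). With Rbpjl the 6 genes lay between -0.0903 (Clps) and 0.306 (Cel) over the 95 barcodes. Over the 53 they lay between -0.272 (Clps) and 0.175 (Pnlip), with Cel at 0.0360. Across 12 sums of a library and class with at least 20 barcodes, the gene most like Pnlip was Cela3b (Pearson r = 0.997 of log2 levels), and most like Clps was Cela2a (r = 0.997). Most like Pla2g1b was the zymogen granule gene Zg16 (r = 0.991), most like Cel was the trypsin inhibitor gene Spink1 (r = 0.991), most like Pnliprp1 was Gp2 (r = 0.988), a zymogen granule membrane protein, and most like Pnliprp2 was Serpini2 (r = 0.988). The sums share the split between acinar-like and other classes.

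The genes lie on 4 chromosomes in GENCODE M21, which annotates mouse build GRCm38, under the gene identifiers of the deposited files, and all 6 are protein-coding. Pnlip (ENSMUSG00000046008, chr19:58652498-58681788), Pnliprp1 (ENSMUSG00000042179, chr19:58728887-58744169) and Pnliprp2 (ENSMUSG00000025091, chr19:58759719-58777534) follow each other on the plus strand. Cel (ENSMUSG00000026818, chr2:28555795-28563403) and Clps (ENSMUSG00000024225, chr17:28558149-28560766) are on the minus strand, and Pla2g1b (ENSMUSG00000029522, chr5:115466262-115474722) is on the plus strand. Rbpjl is at chr2:164403141-164415448, plus strand.

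PTF1 is known to bind an E-box together with a box read by Rbpjl, so the 250 bases before the gene start were searched for the E-box CANNTG and for TGGGAA, each on both strands. RefSeq sequences of build GRCm38.p6 were matched for 5 of the 6 genes, Clps being the other, and the start is the RefSeq one, which for Pnlip lies inside the GENCODE gene. In all 32851 promoters of that table and length, 66.2% held CANNTG, 21.6% held TGGGAA and 14.8% held both. Cel held 5 CANNTG matches, beginning 170, 154, 134, 65 and 32 bases before the start, and 1 TGGGAA. Pnliprp1 held 2 CANNTG and 1 TGGGAA, Pnlip 1 TGGGAA and no CANNTG, Pnliprp2 1 CANNTG and no TGGGAA, and Pla2g1b neither. The 3 promoters with a TGGGAA match are shown because they include that of Cel, the gene whose level differed from the other 5 between the acinar-like clusters. Capitals mark matches to either motif, on the strand of the gene, 5′ to 3′. A match is a run of letters and not a measured binding site.
Cel, chr2:28563404-28563653, minus strand: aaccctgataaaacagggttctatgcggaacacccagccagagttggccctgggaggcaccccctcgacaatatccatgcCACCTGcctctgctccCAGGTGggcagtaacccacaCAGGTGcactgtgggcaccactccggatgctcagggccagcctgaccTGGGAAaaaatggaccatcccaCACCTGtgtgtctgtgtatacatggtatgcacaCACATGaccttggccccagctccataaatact
Pnliprp1, chr19:58728637-58728886, plus strand: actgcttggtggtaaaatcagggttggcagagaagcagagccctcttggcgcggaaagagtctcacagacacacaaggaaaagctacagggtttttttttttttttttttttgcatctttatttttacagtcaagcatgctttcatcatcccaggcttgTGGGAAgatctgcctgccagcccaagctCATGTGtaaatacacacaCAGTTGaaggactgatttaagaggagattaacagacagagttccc
Pnlip, chr19:58670115-58670364, plus strand: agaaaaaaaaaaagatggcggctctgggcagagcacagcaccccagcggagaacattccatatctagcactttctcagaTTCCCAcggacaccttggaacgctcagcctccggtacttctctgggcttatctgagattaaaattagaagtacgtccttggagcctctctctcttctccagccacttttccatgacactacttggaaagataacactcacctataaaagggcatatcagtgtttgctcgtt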

How the data were processed

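UMI counts per gene and barcode of 2 single-cell libraries were used as deposited by the authors, with Cell Ranger 2.1.0 and GRCh38 per the submitters' processing notes and software version 3.1.0 per the file headers. The gene identifiers are mouse Ensembl ones, which leaves the build used for mapping unsettled. The kit is labelled 5′, version 1.1.

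Barcodes were kept from 200 detected genes upward and up to a mitochondrial share of 20%. They were clustered with scanpy 1.11.5 and igraph 0.11.9 (counts scaled to 10000 per barcode, genes in at least 3 barcodes, 2000 variable genes without the 6 lipase genes, 30 principal components, 15 neighbours, Leiden resolution 1). A name required 3 or more markers, each with 5 or more UMIs and raised at least 2-fold, unless the 10 leading genes of the cluster went against the name. That scoring rule was written after the clusters were seen. Scrublet marked 2 of 860 and 5 of 553 barcodes, and these were kept.

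UMIs were summed per set. Levels have exact Poisson intervals, shares exact Clopper-Pearson intervals and ratios exact conditional binomial intervals, all 95% and all covering counting error only (Python 3.11.15, scipy 1.17.1, numpy 2.4.6). A count of 0 was bounded by 3 UMIs. The ratio step was tested on simulated data. Shares of all genes past a fold used genes with at least 30 UMIs in both sums together, and lists used genes with at least 10 UMIs and a pseudocount of 0.5 UMIs. Likeness was Pearson's r of log2(CPM + 10) over genes with at least 100 UMIs.

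The genes named were the 6, Rbpjl, up to 4 genes with the most UMIs from each list, and those most like each of the 6, of which the first is given. Leading genes of a cluster were named after their values were seen. The 6 genes and the lists were chosen with earlier results of these data known. Alternatives changed the filters, doublets, clustering, totals, weights, depth and the sets compared.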

Additional observations from a re-analysis of the deposited data

Results flagged for a closer look

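Barcodes that the filters left out also held lipase transcripts. In the EYFP positive library 17100 of their 1261465 UMIs, or 1.36%, came from the 6 genes, and in the EYFP negative library 839 of 438606 UMIs, or 0.191%. These barcodes enter no comparison above, and Rbpjl was detected in 59 of them in the EYFP positive library and in 1 in the EYFP negative library.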

How the results depend on the processing

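The summed ratio of Rbpjl-positive barcodes to other cell types, 9.35, was 3.01 with every barcode thinned to 500 UMIs, 3.03 as a mean over barcodes, 5.73 without the barcode with the most UMIs, 7.09 over every deposited barcode, 8.38 and 9.96 at Leiden resolutions of 0.5 and 2, 16.05 with at least 2 Rbpjl UMIs and 21.04 under a stricter filter (500 genes or more, mitochondrial share up to 10%). Changing the sets gave 19.1 for the Rbpjl-positive barcodes of the acinar-like class, 28.37 for that whole class, 3.59 against all Rbpjl-negative barcodes, 28.32 against other cell types of both libraries and 2.15 without the enzyme-rich cluster. The ratio of EYFP positive to EYFP negative, 40.7, was 25.56 thinned, 35.01 without acinar secretory, mitochondrial and ribosomal genes in the total, 30.41 as a mean over barcodes, 34.4 without the barcode with the most lipase UMIs in either library, which is EYFP positive, 211.7 without the one in the EYFP negative library, 56.02 without acinar-like barcodes, 29.47 under the stricter filter and 28.79 over every barcode. The ratio of enzyme-rich to Rbpjl-rich, 11.5, was 9.40, 39.09, 9.48 and 10.86 under the first 4 of these (thinned, other total, mean, without the top barcode) and 9.82 over every barcode, and the stricter filter gave no value. The Cel per Clps ratio of Rbpjl-rich over enzyme-rich, 5.52, was 3.65 thinned and 3.53 over every barcode. The summed ratio of Rbpjl-rich to other cell types, 4.77, was 1.70 thinned, 4.18 with the other total and 1.74 as a mean over barcodes, and Clps was 0.887 thinned and 0.816 as a mean, and Pla2g1b 0.886 thinned. With 10 or more Rbpjl UMIs against 1, the summed ratio of 1.08 was 0.440 thinned, 0.887 with the other total, 0.501 as a mean and 1.86 without the top barcode, and Pnlip, 1.18, was 0.515, 0.970 and 0.581 under the first 3.

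Under 17 alternatives all but 1 of 102 values of the 6 genes kept their direction between Rbpjl-positive barcodes and other cell types. The exception was Clps, 0.972 without the enzyme-rich cluster. Of other named genes, Ces1d was 1.32 against other cell types of both libraries, and Hsp90b1 was 1.11 between the acinar-like clusters without those gene classes in the total. The causes were not tested. All 60 values between libraries and all 60 between clusters kept their direction. In each new clustering the enzyme-rich cluster was again the acinar-like one with the higher lipase share. That choice fixed the direction of the summed ratio between clusters. The comparisons of clusters and of Rbpjl bins, the sets without the enzyme-rich cluster or acinar-like barcodes, and the removal of shared barcode sequences or of the EYFP negative barcode were added after seeing the data. No paired analysis was possible because each group is 1 library.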
